A study of Mus musculus with 4 samples.

Results

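The spots described here were chosen, as spots of the ventricle walls, for messages of ependymal cells, the ciliated cells that line the ventricles. Most lay in stretches, but not every spot stood out. Coronal sections of the brains of wild-type C57BL/6J male mice at postnatal day 21 were measured with Visium-FFPE, in which probe pairs report gene expression in an array of tissue spots. The mothers received 2 mg/kg folic acid in the MF group or 20 mg/kg in the HF group, from 2 weeks before mating through pregnancy and lactation, and each group had 2 sections from separate animals. Spots with at least 500 unique molecular identifiers (UMIs) and 250 genes were kept, which left 3598, 3314, 3197 and 3343 spots in MF replicates 1 and 2 and HF replicates 1 and 2. In each section the 18 spots with the highest score for 6 choroid plexus genes (Folr1, Kcnj13, Clic6, Kl, Otx2 and Calml4) were removed, and the 35 highest of the rest for Cfap65, Tmem212, Ccdc153 and Foxj1 were taken as members. A score is the mean over genes of ln(1 + UMIs per 10000). This gave 140 members of 13452 kept spots. A spot is a small area of tissue that can hold several cell types, so fewer ependymal cells and less RNA per ependymal cell cannot be told apart.

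Ependymal cells carry tufts of motile cilia whose beat moves cerebrospinal fluid along the ventricle wall. Each cilium is built on an axoneme, a ring of microtubule doublets around a central pair, in which dynein arms supply the force, radial spokes and nexin links coordinate the doublets, and tektins and other inner proteins line the tubules. Foxj1 and the Rfx factors are transcription factors known to switch on the genes of motile cilia. Intraflagellar transport carries building blocks along motile and primary cilia alike.

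The members had 1082332, 544440, 541494 and 641999 UMIs in MF replicates 1 and 2 and HF replicates 1 and 2. The median member held 29141, 15517, 14724 and 17238 UMIs, against 23503, 12038, 9249.5 and 11811 UMIs in the other spots. MF replicate 1 thus had more UMIs per spot than the other 3 sections. The last member scored 0.435, 0.480, 0.670 and 0.679 in the 4 sections, and the first spot left out scored 0.434, 0.471, 0.611 and 0.677. The number of spots with a score of at least 0.5 was 28 and 32 in the MF group and 48 and 52 in the HF group, so the fixed number of 35 reached lower scores in both MF sections. Of the removed spots, 11, 7, 11 and 7 would otherwise have been members.

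Most members lay in stretches, which are taken here as ventricle walls. In the order above, 28, 22, 27 and 25 of 35 members touched another member. Members linked within 6 array positions were grouped, and groups of at least 3 were named by the neuron or glia genes leading in the spots around them. A hypothalamic wall held 19, 17, 18 and 20 members, a wall beside the medial habenula held 7, 0, 7 and 5, and a lateral wall beside white matter held 3, 15, 8 and 9. The remaining 6, 3, 2 and 1 members were in smaller groups or alone and are called scattered. In MF replicate 2 all 3 scattered members had medial habenula genes leading around them, but in groups of 2 and 1, so that the 0 of its habenular wall comes from the minimum group size. The hypothalamic wall was sampled about equally, whereas MF replicate 2 had the most lateral members.

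**Figure D1:**
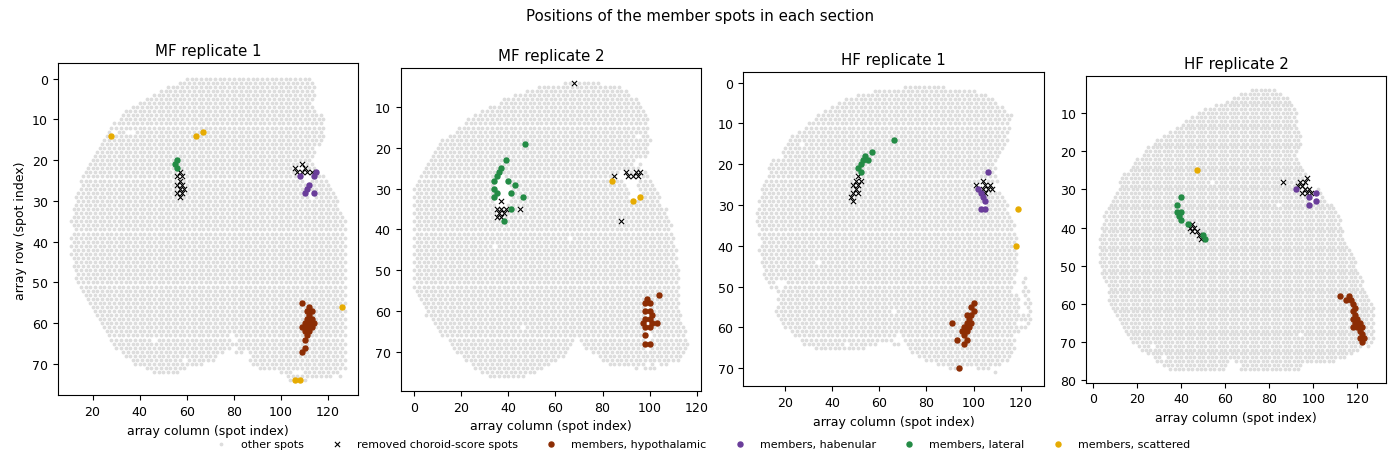
Position of each kept spot on the array, by column and row index, in the 4 sections. Coloured points are members by wall, crosses are the 18 spots removed for choroid plexus genes, and grey points are the other spots; MF replicate 2 has 15 members on the lateral wall, and its 3 members beside the habenula are drawn as scattered because their groups held fewer than 3.

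The label was checked on 96 measured genes of the axoneme that the rule did not use, although they tend to be expressed in the same cells as the rule genes. The median member had UMIs of 56, 40, 42 and 51 of these genes, against 15, 9, 7 and 9 in the median other spot. Axonemal UMIs per 10000 had medians of 40.1, 43.1, 54.4 and 57.9 in members and 10.2, 10.3, 9.82 and 9.98 in the other spots. Not every member stood out: 11, 11, 6 and 3 members lay at or below the 99th percentile of the other spots in axonemal UMIs per 10000. Only 1 or 2 of the 4 rule genes were detected in 5, 3, 2 and 0 members. In MF replicate 1, a scattered member of 952 UMIs had 1 rule gene and 1 axonemal gene, with cortical neuron genes leading around it. Members that touched no other member had lower axonemal medians in MF replicates 1 and 2, at 20.9 and 17.3 per 10000, than those that did, at 52.9 and 53.3. In HF replicates 1 and 2 these medians were 39.1 against 62.7 and 56.9 against 60.9.

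The removal of choroid plexus spots lowered the choroid plexus signal without clearing it. Ttr, which encodes the thyroid hormone carrier secreted by the choroid plexus, had a median of 5.04, 7.09, 5.65 and 7.65 UMIs per 10000 in members, against 941, 731, 1892 and 1911 in the removed spots. The other kept spots, with the removed ones left out, had medians of 5.78, 5.44, 4.88 and 7.30. The summed level in members was nevertheless carried by a few spots, since the 3 highest held 68.0%, 53.7%, 75.2% and 63.9% of all Ttr UMIs of the members. The 6 choroid genes used for the removal summed to 202, 134, 266 and 199 CPM (UMIs summed over spots and scaled to a common total) in members, which is 3.71-, 2.53-, 3.78- and 2.54-fold the other kept spots, and to 2358, 2513, 3330 and 3254 CPM in the removed spots. The list of 14 choroid plexus genes was 1.24-, 1.29-, 1.76- and 1.43-fold the other kept spots. Both sets of ratios count the removed spots among the other kept spots, which lowers them. These genes were highest on the habenular wall, where the list summed to 9965, 19318 and 18619 CPM in MF replicate 1 and HF replicates 1 and 2.

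The 4 rule genes are given only as a description, since they chose the spots. Levels are in CPM, which are counts scaled to a common total per section, of the UMIs summed over the members of a section, and ratios are to the CPM of all other kept spots of the same section, the removed ones included. Cfap65, a cilia protein gene, had 149.7, 116, 257 and 235 CPM in members. Foxj1, the transcription factor for motile cilia, had 95.2, 110.2, 183 and 134 CPM. Tmem212 had 283, 257, 395 and 357 CPM, and Ccdc153, a gene of the axoneme, had 375, 316, 465 and 526 CPM. Summed over the 4 genes, members exceeded the other spots 31.0-, 28.2-, 35.3- and 35.2-fold.

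Because the members were chosen on expression, their comparison with the other spots is likewise a description without a test. Among 2486 features with at least 50 UMIs in every member sum, 65 (2.61%) were at least 2-fold higher in members in all 4 sections, and 4 of these were the rule genes. Prkcd and Ddn were the 2 at or below 0.5-fold in every section (0.0805%). Prkcd, a kinase gene strongly expressed in thalamus, reached 0.382, 0.271, 0.280 and 0.444 of its level in the other spots, and Ddn, which encodes the dendritic protein dendrin, 0.423, 0.463, 0.390 and 0.411. With no such minimum, 662 of 15154 features with a UMI in members (4.37%) were at least 2-fold higher in all 4 sections and 34 (0.224%) at most 0.5-fold.

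The leading features outside the rule were led by genes of the ciliary axoneme. Dnali1, which encodes an inner dynein arm light chain, had 117, 101, 140 and 132 CPM in members and 2.38, 2.98, 4.18 and 2.94 CPM in the other spots. Ak7, an adenylate kinase of cilia, had 164, 143, 233 and 231 CPM in members, 36.7-, 24.7-, 41.1- and 40.4-fold the other spots. Rsph1, a radial spoke head gene, had 149.7, 130.4, 218 and 226 CPM, at ratios of 17.1, 13.4, 19.2 and 20.4. Dnah9, an outer arm dynein heavy chain gene, had 96.1, 97.3, 120.0 and 134 CPM, at ratios from 10.9 to 14.2. In all 4 sections these genes were more than 10-fold higher in members than in all other spots pooled. The removed choroid plexus spots, which 4, 3, 4 and 6 members touched, lay much closer, with 82.7, 111, 124 and 92.9 CPM for Ak7 and 125, 145, 207 and 159 CPM for Rsph1. In MF replicate 2 Rsph1 was higher in the removed spots than in members.

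The other leading features were Lrrc74b, Fam216b, Ccdc162, Enkur, Gm19935, Cfap44, Meig1, Cfap100 and Cfap54, together with the secreted proteins Rarres2 and Lbp. Rarres2, which encodes the chemoattractant chemerin, had 288, 255, 368 and 400.3 CPM in members and 14.4, 15.4, 19.5 and 15.9 CPM in the other spots. Lbp, which encodes the lipopolysaccharide binding protein, had 95.2, 91.8, 96.0 and 106 CPM in members, at ratios of 13.4, 14.1, 10.8 and 10.6. Neither is a part of the axoneme. In the removed spots Rarres2 had 139, 169.9, 255 and 134 CPM, below the members, whereas Lbp had 248, 240, 265 and 350.2 CPM and was thus higher there than in members in all 4 sections.

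**Figure D2:**
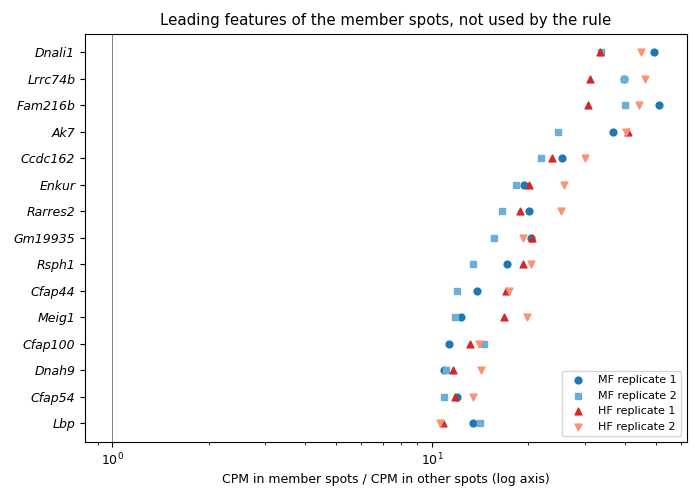
Ratio of CPM in member spots to CPM in other spots, on a log axis, for the 15 features with the largest smallest-of-4-sections ratio, one point per section. The other spots include the removed ones. All points lie above 10, from Lbp at the bottom to Dnali1 at the top, and the order of the sections varies from gene to gene.

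The axoneme was raised in each of its parts. Of the 96 axonemal genes, 76 were at least 2-fold higher in members in all 4 sections, against 4.37% of all features with a UMI. These counts within lists have no minimum of UMIs. With at least 50 UMIs in every member sum, 13 of the 96 remained, of which 11 were at least 2-fold. The summed CPM of the 96 genes was 5465, 5147, 7206 and 7411 in members against 1093, 1114, 1108 and 1105 in the other spots. The removed choroid plexus spots had 4127, 4181, 5592 and 4666 CPM, so the axonemal level was shared with them and was not particular to the members. Dynein arms made the steepest group, with 19 of 22 genes at least 2-fold and ratios of sums from 7.29 to 10.5. Dnah12, a dynein heavy chain gene, had 97.9, 80.8, 159 and 125 CPM in members. The testis-associated heavy chain genes Dnah8 and Dnah17 had at most 1.56 and 0 CPM in members, where a count of 0 allows up to 2.77, 5.51, 5.54 and 4.67 CPM (3 counts of the total, counting error only). Radial spokes, nexin links and the central pair followed with 33 of 37 genes and ratios from 6.39 to 9.20. Hydin, a central pair gene, had 25.9, 34.9, 48.0 and 32.7 CPM, at ratios of 28.8, 34.8, 40.3 and 44.2. Microtubule inner proteins and tektins had 19 of 25 genes at least 2-fold and ratios from 3.28 to 4.89. Tppp3, a tubulin polymerisation gene, had 419, 421, 475 and 595 CPM in members, at ratios of 2.63, 2.61, 3.83 and 3.65. Dynein arm assembly factors had 5 of 12 genes at least 2-fold, including Dnaaf3 at 56.4, 45.9, 86.8 and 67.0 CPM.

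Promoters of axonemal genes are shown because Rfx factors are known to bind a sequence called the X-box. The half-site searched was GTTGCC on both strands, in the 250 bases before the RefSeq gene start on GRCm38.p6. It was present in 28 of the 82 axonemal and rule genes with a promoter sequence (34.1%) and in 3195 of 27025 genes of the whole table (11.8%). In genes of intraflagellar transport and the BBSome it was present in 6 of 26 (23.1%), and in oligodendrocyte genes in 1 of 10. The Forkhead core TGTTTA, searched in the same way, was present in 12 of the 82 genes (14.6%) and in 13.5% of all genes. These matches are descriptions of letters, not binding sites. Of the 15 leading features 10 had a promoter sequence and 2 of these held the half-site. The windows below are from these 2, Enkur and Cfap44, and from Ccdc153, a rule gene, written 5′ to 3′ on the strand of the gene with the half-site in capitals. They lie on the plus strand at chr9:44240503-44240552, on the minus strand at chr2:21205372-21205421 and on the plus strand at chr16:44394648-44394697.
Ccdc153: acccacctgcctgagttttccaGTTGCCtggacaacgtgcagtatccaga
Enkur: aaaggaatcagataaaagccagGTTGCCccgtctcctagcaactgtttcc
Cfap44: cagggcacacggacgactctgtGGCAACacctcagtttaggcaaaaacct
In Cfap44 the half-site runs on the other strand. It ended 146, 28 and 123 bases before the gene start in Ccdc153, Enkur and Cfap44. Cfap44 had a second half-site on the other strand, 13 bases before the start.

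The spots around the members are given as a description, since the 35 highest scores left after the removal had been taken as members. The step from members to their neighbours was set by that choice. The first spot left out scored 0.434 and 0.471 in the MF group and 0.611 and 0.677 in the HF group. The surroundings of the 2 groups are thus not alike in score. One step from a member the summed axonemal level was 1730, 1578, 2060 and 2031 CPM in MF replicates 1 and 2 and HF replicates 1 and 2, and at 6 or more steps it was 1013, 1025, 972 and 980 CPM. The other ependymal genes had 5824, 6008, 6824 and 6237 CPM in members and 3403, 3479, 3743 and 3579 CPM at one step. Microglial genes, taken for comparison, had 495, 542, 534 and 536 CPM in members and 536, 561, 550.2 and 545 CPM at 6 or more steps. Moran's I, the deposited score of how strongly neighbouring spots resemble each other, had a median of 0.0507, 0.0278, 0.0499 and 0.0463 over axonemal genes and 0.0166, 0.0113, 0.0146 and 0.0104 over all features.

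**Figure D3:**
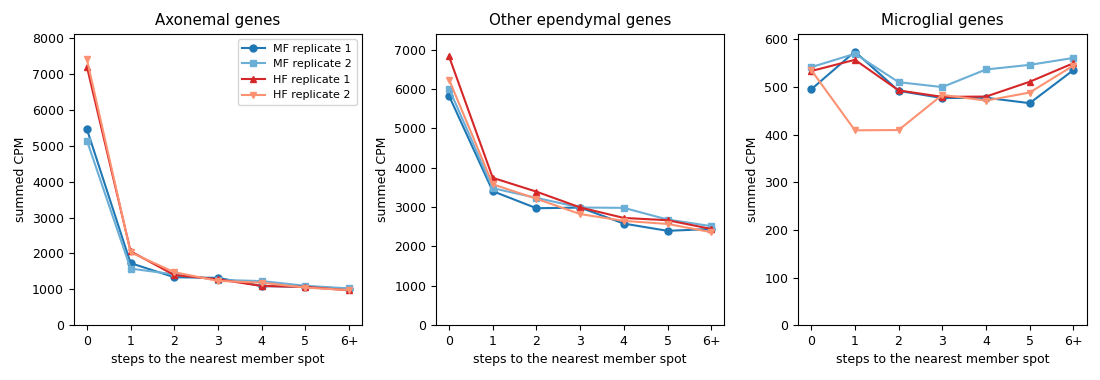
Summed CPM of 3 gene lists against steps to the nearest member spot, one line per section; 0 is the member spots and 6+ all spots at 6 or more steps. Axonemal genes lie above 5000 CPM in members and between 1578 and 2060 CPM at one step, a drop that the choice of members set, and microglial genes show no peak in the members.

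Other genes of ciliated ependyma were raised less evenly. Multiciliated cell regulators had 6 of 20 genes at least 2-fold in all 4 sections. Rfx2 had 14.8, 31.2, 44.3 and 40.5 CPM at ratios of 4.49, 9.98, 13.6 and 13.4, and Myb, known to act early in multiciliated differentiation, had 33.3, 44.1, 62.8 and 49.8 CPM at ratios of 15.9, 22.5, 21.4 and 25.8. Mcidas and Ccno, which act in cells that are still forming centrioles, had at most 1.85 and 1.56 CPM. Intraflagellar transport and the BBSome had 3 of 30 genes at least 2-fold, and their sum was 1.42- to 1.65-fold the other spots. Planar cell polarity genes had 2 of 17, of which Celsr1 had 45.3, 31.2, 53.6 and 43.6 CPM at ratios of 9.42, 5.45, 8.78 and 9.92, and their sum was 1.01- to 1.08-fold. Among other ependymal genes 13 of 23 were at least 2-fold, including Sntn, a gene of ciliary tips, at 52.7, 36.7, 90.5 and 96.6 CPM and Vim, the intermediate filament vimentin, at 189, 186, 233 and 153 CPM. Water and ion handling genes had 0 of 14, and their sum was 0.832- to 0.910-fold the other spots. Aqp4, the water channel shared with astrocytes, had ratios of 1.81, 1.90, 2.48 and 2.65.

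Marker lists of neighbouring cells showed what else the spots held. Astrocyte genes had ratios of sums from 1.12 to 1.35 and microglial genes from 0.943 to 1.02. Oligodendrocyte genes had 0.816, 1.13, 0.886 and 0.886, highest in MF replicate 2, which had the most lateral members. Cortical neuron genes were at 0.435 to 0.563. Hypothalamic neuron genes had ratios of 1.61, 1.46, 1.58 and 3.70, and medial habenula genes 5.41, 1.04, 4.42 and 4.42. Tanycytes, ependymal cells of the third ventricle floor, had no gene at least 2-fold in all sections, and their defining gene Rax had 10.2, 9.18, 3.69 and 0 CPM. Subventricular progenitor and neuroblast genes had ratios of 1.19, 1.76, 1.02 and 0.935.

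The hypothalamic and dorsal walls were then compared, the dorsal walls being the habenular and lateral members together. The fit had section as a block and 4 pairs of sums, and a call in edgeR's quasi-likelihood test needed a change of at least 1.2-fold with p under 0.05 after Benjamini-Hochberg adjustment. The walls differed in 1093 of 8179 features (13.4%), 465 higher (5.69%) and 628 lower (7.68%) in the hypothalamic wall. All 14 hypothalamic neuron genes tested were called higher, and all 12 oligodendrocyte and 8 medial habenula genes lower; these lists named the walls and so are no finding. Of 69 axonemal genes tested 3 were called, all higher in the hypothalamic wall, and the median log2 fold change was 0.24, against -0.01 over all features. Relative to the spots within 3 positions the axonemal median was -0.45 with 0 genes called higher and 6 lower, so the direction turned with the comparison. Over all 12071 features of that fit, 101 were called higher and 76 lower.

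Some genes of the lists outside the axoneme differed between the walls by more. Of those given here, Nnat and Six3 are from the list of other ependymal genes. Slc12a2, Kcnj16 and Car2 are from the water and ion handling list, where 0 of 14 genes were at least 2-fold higher in members in all 4 sections. Nnat, a brain proteolipid gene, had 3333, 3743, 4031 and 2884 CPM in the hypothalamic wall and 1168, 1102, 1509 and 971 CPM in the dorsal walls (log2 fold change 1.503 ± 0.121 SE, edgeR adjusted p = 1.43e-09). The groups did not overlap. Six3, a forebrain transcription factor, had 52.4, 45.1, 35.4 and 145 CPM against 7.30, 13.7, 13.1 and 9.12 CPM (log2 fold change 2.58 ± 0.39, edgeR adjusted p = 3.28e-05). Slc12a2, a sodium, potassium and chloride cotransporter gene, had 33.7, 52.6, 63.6 and 49.2 CPM against 92.5, 174, 100.3 and 114 CPM (log2 fold change -1.33 ± 0.22, edgeR adjusted p = 1.23e-04). Kcnj16, a potassium channel gene, was higher in the hypothalamic wall by 1.83 on the log2 scale (edgeR adjusted p = 0.00192), and Car2, carbonic anhydrase 2, fell by 1.39 (edgeR adjusted p = 5.21e-06). The spots around the walls differed in the same genes. Nnat had 1773 to 2428 CPM around the hypothalamic wall and 336 to 754 CPM around the dorsal walls. Relative to these surroundings none of these 5 genes was called, with adjusted p from 0.531 to 0.960.

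The HF and MF groups were compared on UMIs summed over the 35 members of each section. Of 9841 features tested, 4 were called (0.0406%), all higher in the HF group. They were Avp, Oxt, Ttr and Egr1, none of them a gene of the cilium. At an unadjusted p under 0.05, 297 features (3.02%) were higher and 208 (2.11%) lower. With 2 sections a group, an exact permutation test of a single value cannot go below p = 0.333.

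Avp and Oxt encode vasopressin and oxytocin, hormones of hypothalamic neurons. They are neighbours at chr2:130580620-130582554 and chr2:130576173-130577054 (GENCODE vM21, GRCm38). Avp had 4.62 and 0 CPM in the MF group and 419 and 2453 CPM in the HF group (edgeR adjusted p = 1.51e-07). In HF replicate 1, 225 of 227 Avp UMIs were in 1 scattered member, and the hypothalamic wall had 0 CPM. Oxt had 0.924 and 1.84 CPM in the MF group and 31.4 and 5494 CPM in the HF group (edgeR adjusted p = 0.00108). All 17 Oxt UMIs of HF replicate 1 were in 1 scattered member, whereas 30 members of HF replicate 2 held 3527. The MF group held 2 Oxt UMIs in all, and the ratio of HF to MF totals was 2436 (95% exact interval 674 to 20120, counting error only). Other spots of HF replicate 2 were also high, at 563 CPM for Oxt and 438 CPM for Avp. Hypothalamic neuron genes summed to 13372 CPM in its members against 4903 to 5632 CPM in the other 3 sections. That sum includes Oxt and Avp, at 5494 and 2453 CPM there, and so is no separate result. Other hypothalamic neuropeptides ran the opposite way. Pmch, the precursor of melanin-concentrating hormone, had 1274, 751, 416 and 1.56 CPM in members and 681, 494, 319 and 0.693 CPM in the other spots. Hcrt, the precursor of the orexins, had 157, 88.2, 75.7 and 1.56 CPM in members and 0.215 CPM in the other spots of HF replicate 2. Both genes were thus near 0 over the whole of that section. The level at which each section was cut is not given in the sources used here, and the hypothalamic region that a section holds cannot be told apart from the diet. Without HF replicate 2 no feature was called, with 358 at an unadjusted p under 0.05 in edgeR.

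Ttr had 2948 and 2972 CPM in the MF group and 5874 and 5327 CPM in the HF group, 2960 ± 16.7 against 5601 ± 387 (SD, n = 2 each; log2 fold change 0.91 ± 0.12 SE, edgeR adjusted p = 5.74e-04). The other kept spots, the removed ones included, had 2380 and 2235 CPM against 3311 and 3685 CPM. The difference was thus not limited to the members. The summed dorsal walls had 7060 and 4176 CPM against 12573 and 14249 CPM, but they mix 7, 0, 7 and 5 habenular with 3, 15, 8 and 9 lateral members. On the lateral wall Ttr had 2838 and 4176 CPM in the MF group and 2101 and 11418 CPM in the HF group, so the groups overlapped and HF replicate 1 was lowest. The habenular wall had 8502 CPM in MF replicate 1 and 17083 and 16698 CPM in the HF group. In the hypothalamic wall Ttr had 415, 383, 272 and 672 CPM, and the groups overlapped. All 4 genes tested of the choroid plexus list lay above 0, but that list includes Ttr itself and so is no separate result. With 36 spots removed in place of 18, the log2 fold change of Ttr was -0.55 (edgeR adjusted p = 0.896). The call for Ttr was also lost without HF replicate 1 or HF replicate 2, at adjusted p of 0.860 and 0.895.

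Egr1, an immediate early transcription factor, had 27.7 and 36.7 CPM in the MF group and 66.5 and 126 CPM in the HF group (log2 fold change 1.65 ± 0.30 SE, edgeR adjusted p = 0.0411). The other spots had 49.3 and 58.3 CPM against 157 and 343 CPM, so the difference was not limited to the wall. Summed immediate early genes had 251 and 252 CPM in MF members and 358 and 388 CPM in HF members, with 337, 345, 667 and 749.9 CPM in the other spots. The call for Egr1 was lost without MF replicate 1, HF replicate 1 or HF replicate 2, at adjusted p of 0.216, 0.860 and 0.895.

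Below the threshold, the genes with the smallest p in each direction whose sections did not overlap are given next. Hspa2, a heat shock protein gene, had 49.0 and 66.1 CPM in the MF group and 127 and 121 CPM in the HF group (edgeR adjusted p = 0.0649). Tm4sf1, a membrane protein gene, had 181 and 147 CPM against 270 and 283 CPM. Cfap299, a cilia gene, and Zbbx, a zinc finger gene, were also higher in both HF sections. Zbbx had 13.9, 14.7, 46.2 and 37.4 CPM in members and 1.58, 2.24, 2.44 and 1.82 CPM in the other spots. Hspa2, Tm4sf1 and Cfap299 were likewise higher in members than in the other spots in every section. Of the genes lower in the HF group, so were Cartpt, Thbs4 and Tgfb2, but not Atp2b1 or, in every section, Myl4. Whether these differences follow the choice of spots was not tested. The rule gene Cfap65 met the same condition but had chosen the spots, and its levels given above are a description only. Among those lower in the HF group, Cartpt, a hypothalamic neuropeptide gene, had 139 and 132 CPM against 81.3 and 51.4 CPM. Thbs4, the thrombospondin known from subventricular astrocytes, had 48.0 and 114 CPM against 20.3 and 29.6 CPM. It was carried by the dorsal walls, at 90.0 and 284 CPM against 48.0 and 59.3 CPM. A few spots held most of its UMIs, with 71.2% and 64.5% in the 3 highest members of the MF sections and 54.5% and 63.2% in those of the HF sections. Tgfb2, a growth factor gene, had 123 and 66.1 CPM against 42.5 and 49.8 CPM. Atp2b1 and Myl4 were lower in both HF sections too. Apart from Hspa2, the adjusted p of these genes ranged from 0.121 to 0.323 in edgeR.

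**Figure D4:**
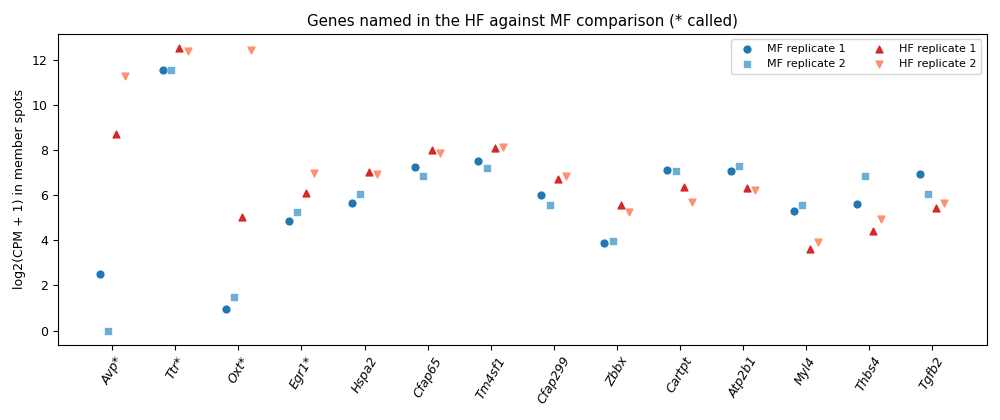
Levels of the genes named in the HF against MF comparison, as log2(CPM + 1) over the 35 member spots, one point per section; an asterisk marks a call. Avp and Oxt differ between the HF sections by more than Ttr or Egr1 do, and 10 of the 14 genes were chosen because the groups did not overlap. Cfap65 is a rule gene and is shown as a description.

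Genes of the axoneme lay higher in the HF group as a block, but none was called. Of 82 tested, 77 had a log2 fold change above 0 and 5 below, against 50.3% and 49.7% of all features, and the median was 0.48 against 0.00193 over all features. An unadjusted p under 0.05 was reached by 34 in the higher direction and 0 in the lower. In 58 of the 82 both HF sections exceeded both MF sections, which held for 18.2% of all features, and in 2 both lay below, as for 16.8%. The genes share spots and sections and are not independent. Lrrc23, a radial spoke gene, had 55.4 and 86.3 CPM against 127 and 129 CPM, Iqcg, a nexin link gene, 68.4 and 62.4 CPM against 120.0 and 117 CPM, and Dnah1, a dynein heavy chain gene, 42.5 and 29.4 CPM against 81.3 and 63.9 CPM.

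This shift moved with how the spots were chosen. Rule genes and axonemal genes varied together between sections, with 5.54 to 6.44 axonemal UMIs for each UMI of the 4 rule genes. When all spots with a score of at least 0.5 were taken in place of 35 per section, 57 of 84 axonemal genes lay above 0 and the median was 0.09. An unadjusted p under 0.05 in edgeR was reached by 3 in the higher direction and 1 in the lower. Over all 10637 features it was reached by 436, of which 211 were higher. Within the hypothalamic wall alone, whose 17 to 20 members were similar in number, the median was 0.44. Those members are part of the same 35 per section, so the choice of spots enters this median as well. Over whole sections, a measure that no choice of spots enters, the rule genes summed to 39.6 and 38.2 CPM in the MF group and 56.4 and 54.0 CPM in the HF group, and axonemal genes to 1146 and 1165 CPM against 1203 and 1200.4 CPM. For the axonemal sum, where the groups did not overlap, the exact permutation test gives its smallest p of 0.333. The rule gene sum is a description only. How much ventricle wall each section held was not measured.

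**Figure D5:**
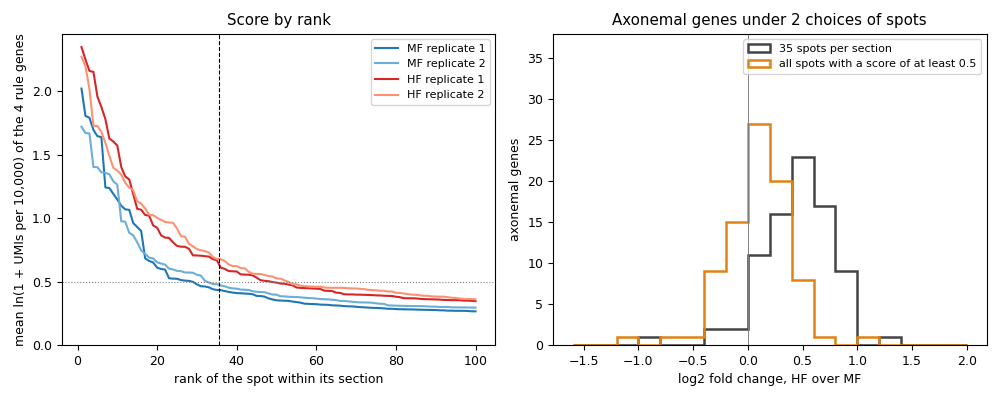
Left, score of the 4 rule genes by rank of the spot in its section, with the limit of 35 members as a dashed line and a score of 0.5 as a dotted line; both HF sections lie above both MF sections at the limit. Right, log2 fold changes of axonemal genes, HF over MF, with 35 spots per section (median 0.48) and with all spots scoring at least 0.5 (median 0.09).

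Other gene groups gave no call apart from those above. Other ependymal genes had 17 of 23 above 0 and a median of 0.23, with Sntn at 52.7 and 36.7 CPM against 90.5 and 96.6 CPM, and the median was -0.07 with all spots scoring at least 0.5. Intraflagellar transport and the BBSome had 19 of 29 above 0, with a median of 0.20. Water and ion handling had 9 of 13 and a median of 0.05, and planar cell polarity 8 of 15 and 0.03. Oligodendrocyte genes lay below 0 in 12 of 12, with a median of -0.44 and 6 at an unadjusted p under 0.05. The median was -0.17 without MF replicate 2, the section with the most lateral members. Subventricular genes lay above 0 in 1 of 10, with a median of -0.56, and at 0.12 within the hypothalamic wall. Tanycyte genes lay above 0 in 1 of 6 with a median of -0.68; Col23a1, a collagen gene, had 69.3 and 47.8 CPM against 35.1 and 6.23 CPM. Microglial genes lay above 0 in 3 of 8 with a median of -0.03.

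Genes of folate uptake and one-carbon metabolism, the pathway that the diet supplies, gave no call among 16 tested. Of these 7 lay above 0, with a median of -0.09. Their sum was 706, 705, 711 and 621 CPM in members and 524, 523, 522 and 498 CPM in the other spots. Mat2a, which makes S-adenosylmethionine, had 99.8 and 118 CPM against 75.7 and 71.7 CPM and was the only one at an unadjusted p under 0.05. Folr1, the folate receptor used to remove choroid plexus spots, had 53.6 and 38.6 CPM against 57.2 and 59.2 CPM. Its level in members was set in part by that removal and is a description only. As a gene of the list, Folr1 also enters the counts, median and sum above. Slc19a1, the reduced folate carrier, had 45.3 and 23.9 CPM against 38.8 and 29.6 CPM. The groups overlapped in Slc19a1, and, Folr1 left aside, a difference was not shown at this depth for any gene tested.

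Finally, it was tested whether the diet difference in members differed from that in the other spots of the same sections. Of 14682 features 2 were called (0.0136%), 1 in each direction (0.00681%). Oxt differed more in members (difference of log2 fold changes 3.99 ± 0.58 SE, edgeR adjusted p = 4.33e-06). Hist1h1d, a linker histone gene of a family with closely related sequences, had 59.1, 110.2, 38.8 and 29.6 CPM in members of MF replicates 1 and 2 and HF replicates 1 and 2, and 35.6, 35.3, 35.2 and 44.4 CPM in the other spots (difference -1.40 ± 0.29 SE, edgeR adjusted p = 0.0352). The call for Hist1h1d was lost without MF replicate 2 or HF replicate 2, at adjusted p of 0.812 and 0.866, and that for Oxt without MF replicate 2, at 0.913. Dbi, which encodes the acyl-CoA binding protein, had 2212, 2138, 2392 and 2938 CPM in members and 561, 585, 475 and 561 CPM in the other spots and was not called (edgeR adjusted p = 0.189). Of 93 axonemal genes tested 0 were called in edgeR, with 9 higher and 0 lower at an unadjusted p under 0.05. Over all 14682 features that p was reached by 670, of which 295 were higher. The axonemal median was 0.37. With the spots within 3 positions as the comparison the median was 0.05.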

How the data were processed

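The members, gene lists and tests were chosen with earlier results of these data known. Visium-FFPE libraries of 4 sections were processed by the authors with Space Ranger 2.0.0 on mm10, and the deposited matrices hold raw UMI counts of 19465 features per spot under tissue. The deposited score is Moran's I of each feature. Array row and column gave spot positions. The authors' summary columns other than Moran's I were not used.

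Counts were summed per section over members, all other kept spots, or the spots of a wall, since spots of a section are not replicates. Sums were compared with edgeR 4.0.16 (R 4.3.3; quasi-likelihood test, TMM, filterByExpr), with DESeq2 1.42.0 as an alternative. A call needed a change of at least 1.2-fold with p under 0.05 after Benjamini-Hochberg adjustment over all features tested. The comparison of walls was added after seeing the data. The 2 replicates a group are biological. The spread behind a p-value is moderated over all features tested, so it is not that of the gene's own replicates alone. A small p can therefore stand beside replicates that differ widely, as for Oxt at 31.4 and 5494 CPM in the HF group. The fits were tested on simulated data.

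Named genes were the rule genes, the members of the lists, the 15 features with the largest smallest-of-4-sections ratio, and the called genes of each diet test, with the 5 of smallest p in each direction whose groups did not overlap. Genes named in the comparison of walls were chosen after their values were seen. A gene's level is never set against another gene's as a measure of abundance, because probe numbers differ. Promoter sequences are RefSeq's on GRCm38.p6; 82 of 100 axonemal and rule genes matched by symbol. Intervals are exact Clopper-Pearson intervals. Alternatives were other numbers of members and of removed spots, thinning to 5000 UMIs, other comparison spots, normalization, the low-count filter, and leaving out each section.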

Additional observations from a re-analysis of the deposited data

Results flagged for a closer look

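In 2 genes the test found a diet difference in the 35 member spots that differed from that in the other spots of the same sections. For Oxt the difference of log2 fold changes was 3.99, with 0.924, 1.84, 31.4 and 5494 CPM in the members of MF replicates 1 and 2 and HF replicates 1 and 2. The value of HF replicate 1 rests on 17 UMIs in 1 scattered member, and its hypothalamic and dorsal walls had 0 CPM. For Hist1h1d it was -1.40, with 59.1, 110.2, 38.8 and 29.6 CPM; the 3 highest spots of MF replicate 2 held 55.0% of its UMIs there. With 2 sections a group no test for single outlying sections was possible.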

How the results depend on the processing

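The count of 4 features called between the diets was 2 with DESeq2, 34 with no filter on low counts, 29 with the replicate block, 1 with 20 members, 1 with 50 members, 2 with no spots removed, 0 with 36 removed, 1 after thinning and 0 in the hypothalamic wall only, and ranged from 0 to 23 when a section was left out (0 without HF replicate 2, 1 without HF replicate 1, 12 without MF replicate 2, 23 without MF replicate 1). At an unadjusted p under 0.05 there were 523 features with 36 spots removed and 467 in the hypothalamic wall only, in edgeR. Replicate numbers did not pair the sections (correlation of deviations 0.0216 over 9841 features), so the block uses a shared number only. The 2 calls of the diet by spot class test were 0 with DESeq2 (154 at an unadjusted p under 0.05), 4 with no filter, 0 against spots within 3 positions (594), 9 with 20 members, 1 with 50 members and 1 with a score of at least 0.5, and ranged from 5 to 63 without a section. The 1093 calls between walls were 177 relative to the surroundings and ranged from 781 to 1206 without a section. The 65 features at least 2-fold higher in members were 42 with 20 members, 141 with no spots removed, 6 after thinning, which leaves fewer features with 50 UMIs, and 209 with a minimum of 20 UMIs, and ranged from 66 to 114 without a section, the highest without MF replicate 2. The cause of the other changes was not tested.

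The diet log2 fold change of Ttr reversed to -0.55 with 36 spots removed. Relative to the surroundings the wall differences of Nnat (-0.15), Folr1 (0.46), Col23a1 (-0.14), Aqp4 (0.27), Fam183b (-0.99), Rsph9 (-0.52), Car14 (0.17), Ankrd6 (-0.16), Ank3 (0.0139) and Cfap45 (-0.25) reversed. Folr1 was used to remove spots, so its values are a description only. The score of at least 0.5, the hypothalamic wall alone and the comparison of walls were chosen after seeing the data. With member sums from 541494 to 1082332 UMIs, a count of 0 allows levels of up to 2.77 to 5.54 CPM.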
